A study of Homo sapiens with 4 samples.

Results

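The GRIN family holds the genes of the NMDA receptor subunits, GRIN1, GRIN2A, GRIN2B, GRIN2C, GRIN2D, GRIN3A and GRIN3B, together with GRINA, which shares the prefix but encodes no part of the channel. All 8 genes were looked up by symbol among the 58243 genes listed for each library, and all 8 were found. They were measured by RNA sequencing in SH-SY5Y, an established human neuroblastoma cell line, in 2 groups of 2 libraries. The control group (replicates a and b) did not receive the agent given to the other group. The SNP group (replicates a and b) received sodium nitroprusside, a compound that releases nitric oxide, and the protocol gives 8 h of exposure. The dose behind the sequenced libraries is not given in the sources used here. The treatment protocol describes the cells of both groups as differentiated with retinoic acid. The library protocol calls the RNA of treated cells oxidized RNA and that of the other group control RNA, and it does not say whether oxidized molecules were enriched. A difference between the groups is therefore a difference between these RNA preparations. The labels do not say whether replicates a and b were separate cultures, so the spread between them, and every p-value below, may measure technical variation only.

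NMDA receptors are ion channels opened by glutamate together with glycine or D-serine, and they let calcium into neurons. Each channel is built around obligatory GluN1 subunits, the product of GRIN1, with GluN2 subunits (GRIN2A to GRIN2D) that bind glutamate or GluN3 subunits (GRIN3A and GRIN3B) that bind glycine. The GluN2 subunit sets much of the channel's kinetics and its sensitivity to magnesium block. GluN2A and GluN2B predominate in the forebrain, GluN2C is best known from cerebellar granule cells and GluN2D from the developing brain. Calcium entering through the channel activates neuronal nitric oxide synthase, which is held near it by the scaffold protein PSD-95. GRINA belongs to the TMBIM family of membrane proteins, which act on calcium stores and cell death.

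The genes were chosen as a family in which earlier results of these same libraries had shown a difference between SNP and control. Their own differences are therefore given as descriptions, without a test. Counts summed over genes were 6538701 and 5613144 in control a and b, and 8056550 and 7648309 in SNP a and b. At that depth 3 counts correspond to between 0.372 and 0.534 CPM, the unit of counts scaled to a common library size that is used below. Of the marker genes of neuroblastoma cells, 11 of 12 were counted in every library, and TH was listed at 0. Their summed level was 3192 and 3359 CPM in control and 2509 and 2769 CPM in SNP. Of the 11 tested, 3 were higher and 7 lower, against 13.6% higher and 12.6% lower of all genes tested (edgeR). The part of these markers in the GRIN values was not tested. Of 6 genes of the retinoic acid response, 4 were counted in every library and CYP26A1 was listed at 0. Their sum was 434 and 498 CPM in control and 369 and 381 CPM in SNP, nearly all of it from RET, and RET was lower in SNP (edgeR). Summed glial markers lay between 0.389 and 1.54 CPM, with AQP4 and MBP at 0 everywhere, summed haematopoietic markers between 0.504 and 1.17 CPM, and summed epithelial markers between 3.50 and 5.50 CPM. Mesenchymal or fibroblast markers summed to 104 and 88.6 CPM in control and 93.4 and 90.9 CPM in SNP. Of the 4 mesenchymal markers tested COL3A1 was higher, by 0.68 on the log2 scale, and PDGFRB and COL1A2 lower, at -0.91 and -1.67 (edgeR). The part of these markers in the GRIN values was not tested either. In a bulk library, fewer cells that express a gene and less of its RNA per cell cannot be told apart, which holds for every level given here.

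Of the 8 genes, 4 carried enough reads to be fitted: GRIN1, GRIN2C, GRIN2D and GRINA. GRIN2B and GRIN3B had 0 counts in all 4 libraries, which allows up to 3 counts, or 0.372 to 0.534 CPM, in each (counting error only). GRIN2A had 1 count, in control b, and GRIN3A had 1 count in control a and 1 in SNP b. These 4 genes together gave 2 counts among 12151845 in control and 1 count among 15704859 in SNP, so no difference between groups was detectable for them at this depth. The channel genes counted in these cells were thus mainly the obligatory subunit and the GRIN2C and GRIN2D types, in both groups.

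Reads of the GRIN genes could be exchanged without a mismatch only where their transcripts hold the same bases over a whole read. Over the annotated transcripts of the 28 pairs that the 8 genes form, the longest exact shared run was between 12 and 39 bases. No pair shared a run as long as the 75-base reads. Every full-length read would therefore cross at least 1 base that differs between any pair of GRIN genes. Reads aligned with mismatches or in part are not covered, since the aligner is not given in the sources used here. Genes outside the family were not compared.

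GRIN2C (ENSG00000161509), encoding GluN2C, was higher in SNP in both libraries. The gene lies on the minus strand of chromosome 17, from 74842023 to 74861504 on GRCh38, with 8574 exonic bases. It had 9 and 7 counts in control a and b, and 131 and 167 counts in SNP a and b. Scaled by library size, these were 1.39 and 1.24 CPM in control and 16.5 and 21.7 CPM in SNP. The groups did not overlap, and the lowest SNP library was many times the highest control library. The mean level went from 1.32 ± 0.103 CPM (SD, n = 2) to 19.1 ± 3.65 CPM (SD, n = 2), a log2 fold change of 3.83 with a standard error of 0.320, or 14.3-fold. The standard error was larger in several other fits, most of all with DESeq2 (0.488) and limma-voom (0.455). It was also larger with any single library left out. Ranked from the highest, this fold change was number 18 among the 14759 genes fitted. Per transcript length GRIN2C nevertheless stayed a low-level transcript: 0.721 ± 0.0466 TPM (SD, n = 2; TPM are levels scaled for both gene length and library size) in control and 11.4 ± 2.55 TPM (SD, n = 2) in SNP. That placed it at percentile 0.827 of the fitted genes in control and at percentile 22.4 in SNP. With fewer than 10 counts in each control library, it passed the filter through its SNP libraries. Genes low in both groups were left out, so its place in control depends on the filter. The shift between the percentiles restates its fold change.

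GRIN2D (ENSG00000105464), encoding GluN2D, gave no such pattern. The gene lies on the plus strand of chromosome 19, from 48394875 to 48444931, with 5093 exonic bases. It had 8 and 11 counts in control a and b, and 7 and 14 counts in SNP a and b. As levels these were 1.23 and 1.95 CPM in control and 0.881 and 1.82 CPM in SNP. The groups overlapped, with the lowest level in SNP a and the highest in control b. The log2 fold change was -0.23 with a standard error of 0.593, and over 13 alternative fits it ran from -0.83 to 0.20, the ends reached by leaving out a single library. Neither direction can be assigned at these counts.

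GRIN1 (ENSG00000176884), the gene of the obligatory GluN1 subunit, was the most abundant channel gene in every library and was modestly lower in SNP. It lies on the plus strand of chromosome 9, from 137138390 to 137168762, with 6729 exonic bases. Its counts were 258 and 282 in control a and b, and 251 and 266 in SNP a and b. Its levels were 39.8 and 50.1 CPM in control and 31.6 and 34.5 CPM in SNP. The groups did not overlap, but the gap between control a and SNP b was smaller than the gap between the 2 control libraries. The mean was 44.9 ± 7.27 CPM (SD, n = 2) in control and 33.0 ± 2.05 CPM (SD, n = 2) in SNP, a log2 fold change of -0.44 with a standard error of 0.149. Leaving out control b moved it to -0.27 and leaving out control a to -0.60, and offsets for guanine over cytosine content, described further on, moved it to -0.18.

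GRINA (ENSG00000178719) was the most abundant of the 8 genes per length, and it was lower in SNP. It lies on the plus strand of chromosome 8, from 143990058 to 143993415, with 2527 exonic bases. Its counts were 316 and 376 in control a and b, and 225 and 264 in SNP a and b. Its levels were 48.7 and 66.8 CPM in control and 28.3 and 34.2 CPM in SNP. Both SNP libraries lay below both control libraries. The mean went from 57.7 ± 12.7 CPM (SD, n = 2) to 31.3 ± 4.18 CPM (SD, n = 2), a log2 fold change of -0.88 with a standard error of 0.157, or -0.17 with those offsets. On the TPM scale it was 108 ± 25.2 (SD, n = 2) in control and 63.4 ± 10.5 (SD, n = 2) in SNP. Of its exonic bases, 324 also belong to PARP10 on the opposite strand, whose own counts were 8 and 10 in control and 16 and 19 in SNP. PARP10 had a log2 fold change of 0.58 (adjusted p = 0.445, edgeR). Whether reads were counted by strand is not given in the sources used here. The counts of PARP10 do not show how reads of the shared bases were assigned. The part of this overlap in the GRINA values was not tested.

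**Figure D1:**
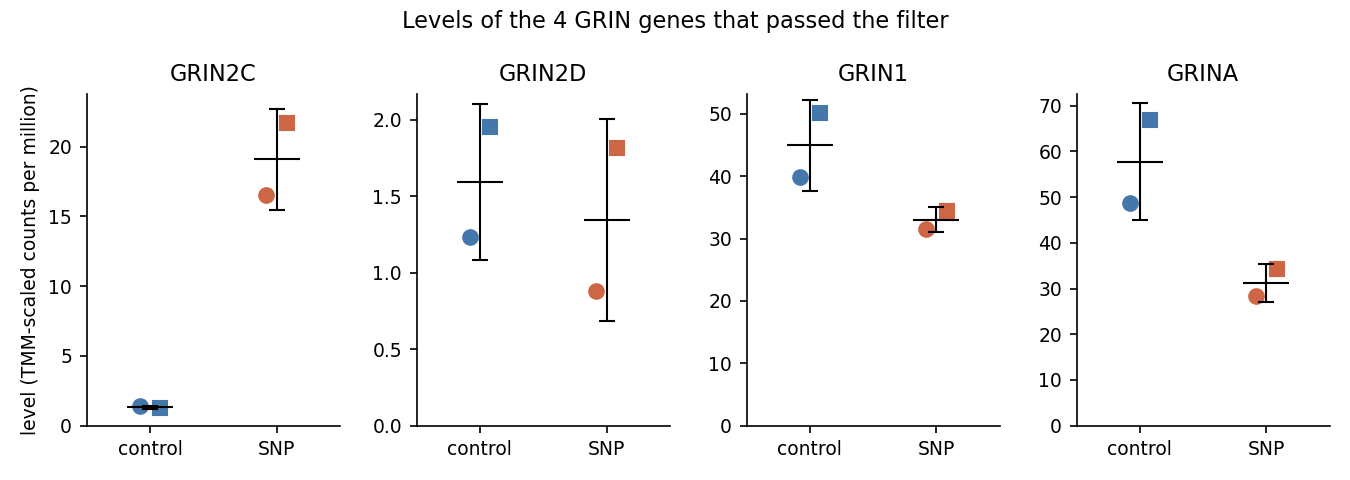
Level of the 4 GRIN genes with enough reads, in TMM-scaled CPM on separate linear axes that start at 0, for control (blue) and SNP (orange); circles are replicate a, squares replicate b, and the horizontal line with bars is the mean ± SD of 2 libraries. GRIN2C went from 1.39 and 1.24 to 16.5 and 21.7 CPM, GRIN1 and GRINA were lower in both SNP libraries, and GRIN2D overlapped.

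The fit over all genes was edgeR's quasi-likelihood test with p adjusted after Benjamini and Hochberg. At an adjusted p under 0.05 it held 3 of the 4 fitted GRIN genes, 1 higher and 2 lower. Over all 14759 genes fitted the share past that threshold was 26.2%, with 13.6% higher and 12.6% lower. The levels of the 2 groups did not overlap for 64% of all genes fitted. Because the family was chosen on this contrast, nothing is read from its count.

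Measured per length, the make-up of the receptor transcripts differed between the groups, mainly through GRIN2C. The shares describe the same values as above in another form and are no separate result. On the scale of RPKM, which divides counts by gene length and library total, GRIN1 made up 93.3% and 93.2% of the summed level of the 7 channel genes in control a and b. In SNP a and b its share was 69.1% and 63.9%. GRIN2C made up 2.55% and 1.82% in control, and 28.3% and 31.5% in SNP. The summed level of the 7 genes was 29.5 and 37.9 TPM in control and 33.9 and 42.0 TPM in SNP. The groups overlapped in this sum, and the means of 33.7 ± 5.92 TPM (SD, n = 2) and 37.9 ± 5.68 TPM (SD, n = 2) differed by less than the spread between replicates.

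**Figure D2:**
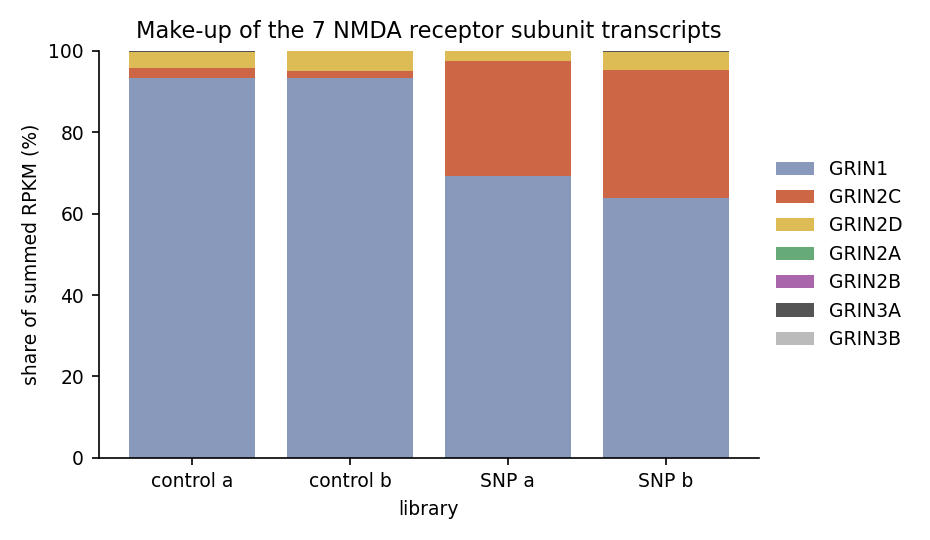
Share of the summed RPKM of the 7 channel genes (vertical axis, percent, from 0 to 100) in each library, stacked by gene. GRIN1 fills 93.3% and 93.2% of the control bars and 69.1% and 63.9% of the SNP bars, and the GRIN2C band takes most of the remainder in SNP.

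Among the 4 GluN2 genes alone, the balance of GRIN2C and GRIN2D differed between the groups. GRIN2C held 40.1% and 26.9% of the summed GRIN2 level in control a and b, and 91.7% and 87.6% in SNP a and b. GRIN2D held nearly all the remainder in each library. In plain counts, GRIN2C gave 9 of 17 GRIN2 counts in control a (52.9%, exact Clopper-Pearson 95% interval 27.8 to 77%) and 7 of 19 in control b (36.8%, 16.3 to 61.6%). It gave 131 of 138 in SNP a (94.9%, 89.8 to 97.9%) and 167 of 181 in SNP b (92.3%, 87.4 to 95.7%). These intervals cover counting error only and are no test between the groups.

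The ratio of GRIN1 to the summed GRIN2 genes, per length, was 14.6 and 13.8 in control and 2.24 and 1.78 in SNP. GRIN1 therefore stayed above the GRIN2 sum in every library. How far depends on the length taken for GRIN2C, since its 8574 exonic bases pool all annotated transcripts and its longest coding transcript has 4261. With the longest coding transcript of each gene, the ratio was 17.0 and 17.7 in control and 1.90 and 1.54 in SNP. With those lengths GRIN2C stood at 1.34 and 0.761 times GRIN2D in control, against 0.668 and 0.378 times with all exons. The order of GRIN2C and GRIN2D in control therefore turned with the length in control a and is not settled. In SNP GRIN2C was above GRIN2D with either length, by 22.4 and 14.3 times or by 11.1 and 7.09 times.

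The ground around GRIN2C was examined because neighbouring genes were no part of the choice. The nearest gene is FDXR, which encodes ferredoxin reductase of the mitochondria and is a known p53 target. It lies upstream on the same strand, from 74862497 to 74873031, and 992 bases separate the 2 gene bodies. FDXR was counted 67 and 89 times in control, against 306 and 377 times in SNP, or 10.3 and 15.8 CPM in control and 38.5 and 48.9 CPM in SNP. The groups did not overlap, and FDXR rose by a log2 fold change of 1.75 with a standard error of 0.194 (adjusted p = 1.9e-06, edgeR). It passed in 14 of 14 alternative fits, where its log2 fold change ran from 1.40 to 2.08. Reads along the gap were not analysed here.

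On the other side of GRIN2C, 2243 bases away and on the opposite strand, TMEM104 fell. Its levels were 58.1 and 58.1 CPM in control and 31.2 and 40.1 CPM in SNP, a log2 fold change of -0.71 (standard error 0.141, adjusted p = 8.7e-04, edgeR). Within 100 kb of GRIN2C, 6 of the 12 other annotated genes could be tested. Of these 2 rose and 2 fell, against 13.6% higher and 12.6% lower of all genes fitted. The other riser was NAT9, with a log2 fold change of 0.47 (adjusted p = 0.0423, edgeR). Its call was lost in 7 of 14 alternatives, among them the fits without control a (0.25) and without SNP a (0.45), and its direction turned with the guanine over cytosine offsets (-0.097). HID1 also fell, by 0.76 (adjusted p = 0.0044, edgeR). With those offsets TMEM104 was at -0.46 and HID1 at -0.50, and both still passed. SLC9A3R1 and RAB37 did not pass, at -0.31 and -0.088, and neither kept its sign over the alternatives. The genes around GRIN2C thus moved in both directions, and FDXR had the largest fold change among these 6. So few genes give no result about the window as a whole.

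**Figure D3:**
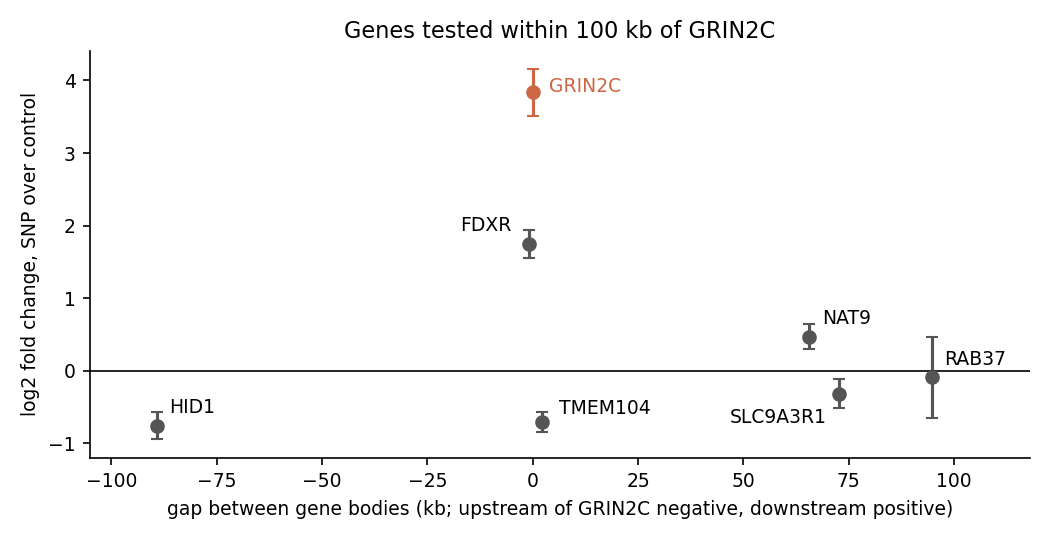
log2 fold change of SNP over control, with standard error bars, for GRIN2C and the 6 genes tested within 100 kb, against the gap between gene bodies in kb (upstream of GRIN2C negative, downstream positive). FDXR, 992 bases upstream, stands at 1.75, and TMEM104, 2243 bases downstream, at -0.71.

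The neighbours of the other 3 fitted genes went in different directions. Beside GRIN1, DPP7 had a log2 fold change of -0.29 (adjusted p = 0.154, edgeR) and ANAPC2 one of 0.13 (adjusted p = 0.598, edgeR), so neither passed, and ANAPC2 ran from -0.065 to 0.35 over the alternatives. AL929554.1, also beside GRIN1, had 0 counts in all 4 libraries. LRRC26, which shares 5 exonic bases with GRIN1, had between 0 and 2 counts. Beside GRIN2D, KDELR1, a receptor that returns proteins to the endoplasmic reticulum, fell by 0.93 on the log2 scale (adjusted p = 4.9e-05, edgeR), a call lost with the guanine over cytosine offsets (-0.29, adjusted p = 0.109). GRWD1, 841 bases downstream of GRIN2D, had 0.21 (adjusted p = 0.267, edgeR). It passed as higher in 4 of 14 alternatives, at 0.30 with offsets on length and GC, 0.39 with the guanine over cytosine offsets, with or without the replicate block, and 0.37 without SNP a. Beside GRINA, PLEC rose by 0.68 (adjusted p = 4.1e-05, edgeR) while EXOSC4 did not pass at 0.32 (adjusted p = 0.326, edgeR), and SPATC1 had 1 count in all. With the guanine over cytosine offsets PLEC was at 0.27 and still passed, and EXOSC4 turned to -0.21. Among the genes without enough reads, GRIN3B shares 85 exonic bases with TMEM259, and GRIN2B shares 263 with AC007527.1 and 546 with AC007527.2.

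Base composition moved with the fold changes over all genes, and 3 of the 4 fitted GRIN genes lie toward its cytosine-rich end. The measure is guanine minus cytosine content of the annotated transcripts, in percentage points. It was -9.75 for GRINA, -5.89 for GRIN2D and -2.70 for GRIN1, at percentiles 0.360, 2.17 and 10.5 of the genes fitted. GRIN2C stood near the middle, at 0.77 and percentile 45.8. Genes were split into bins by this measure. Of the genes in the bin that holds GRINA and GRIN2D, 555 of 1473 fell and 31 rose, with a median log2 fold change of -0.43. In the bin that holds GRIN1 the median was -0.27, and in that of GRIN2C it was -0.051. Over 10 bins of equal size, the medians ran from -0.43 in the lowest to 0.39 in the highest.

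Refitted with an offset per library for transcript length, GC content and guanine over cytosine (the guanine over cytosine offsets), GRIN1 had a log2 fold change of -0.18, GRINA of -0.17 and GRIN2D of 0.15. GRIN1 and GRINA thus moved most of the way to 0, and GRIN2D changed sign. GRIN2C was at 3.81. With offsets on length and GC alone GRIN1 was at -0.30, GRINA at -0.69, GRIN2D at -0.090 and GRIN2C at 3.96. Part of the shift of GRIN1, GRINA and GRIN2D was thus present before guanine over cytosine entered. By GC content all 4 genes lie high, between percentiles 92.3 (GRINA) and 99.6 (GRIN2D) of the genes fitted. By its longest coding transcript alone, GRIN2C has a guanine minus cytosine content of -2.79, which would place it among genes of the same side as GRIN1. What links composition to these libraries was not tested.

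**Figure D4:**
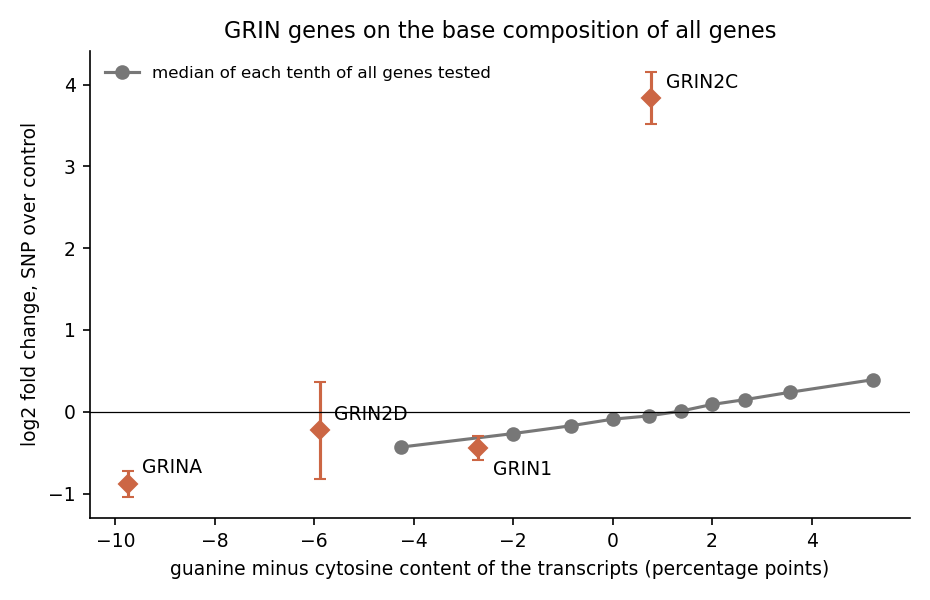
log2 fold change of SNP over control against guanine minus cytosine content in percentage points: orange diamonds with standard error bars are the 4 GRIN genes fitted, and the grey line joins the medians of 10 equal bins of all genes fitted, from -0.43 to 0.39. GRINA at -0.88 and GRIN1 at -0.44 lie on the side where the medians are below 0, and GRIN2C at 3.83 lies far above its bin.

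Of 19 other ionotropic and metabotropic glutamate receptor genes 10 could be tested, and 3 fell and 0 rose. Their median log2 fold change was -0.29 against -0.0042 over all genes. The share past the threshold, 30%, lay near the 26.2% of all genes, so these counts are no result about the list. GRIK3, named after its values were seen, had 0.47 (adjusted p = 0.0984, edgeR) and passed as higher in the 3 fits with offsets, on length and GC alone (0.56) or on guanine over cytosine too, with or without the replicate block (0.63). GRM7, a metabotropic receptor that restrains transmitter release, went from 444 and 409 counts in control to 223 and 251 in SNP. It fell by 1.22 on the log2 scale (standard error 0.133, adjusted p = 1.7e-06, edgeR). GRIK2, a kainate receptor subunit, fell by 0.46 (adjusted p = 0.0031, edgeR), and both calls held in 14 of 14 alternative fits. GRIK5, another kainate subunit, was just past the threshold at -0.34 (adjusted p = 0.0490, edgeR) and passed in 4 of 14 alternatives, lost among others without control a (-0.35), control b (-0.34) or SNP a (-0.23). The AMPA receptor genes GRIA2, GRIA3 and GRIA4, which carry fast excitation beside NMDA receptors, had -0.24, -0.26 and -0.18 and did not pass (adjusted p = 0.351, 0.159 and 0.520, edgeR). With the guanine over cytosine offsets GRIA2 and GRIA3 did pass, at -0.61 and -0.39, and with offsets on length and GC alone GRIA3 passed (-0.32) and GRIA2 did not (-0.35). GRIA1 was counted 12 and 4 times in control, against 6 and 5 times in SNP, too few for the test.

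Scaffold and trafficking genes, which hold NMDA receptors at the synapse, went both ways. Of 28 genes 25 were tested, 2 rose and 4 fell, and their median log2 fold change was -0.12. That is 24% past the threshold, near the 26.2% of all genes, so these counts are no result about the list. DLG4, which encodes PSD-95, did not pass, at 0.13 (adjusted p = 0.535, edgeR). LIN7C, which is part of a complex that carries GRIN2B-containing receptors along microtubules, rose by 0.78 (adjusted p = 9.0e-05, edgeR), from 69.8 ± 4.49 CPM (SD, n = 2) to 120.1 ± 20 CPM (SD, n = 2). CASK, of the same complex, rose by 0.36 (adjusted p = 0.0220, edgeR) and APBA1, also of it, fell by 0.64 (adjusted p = 0.0106, edgeR). DLGAP4 and SHANK1, which link PSD-95 to deeper layers of the synaptic scaffold, fell by 0.70 and 0.50 (adjusted p = 3.5e-04 and 0.0076, edgeR). MAGI2, another synaptic scaffold, fell by 0.41 (adjusted p = 0.0079, edgeR). These 3 calls were lost with the guanine over cytosine offsets, where DLGAP4 was at -0.23, SHANK1 at -0.052 and MAGI2 at -0.20, and held with offsets on length and GC alone. LIN7C was at 0.50 with the guanine over cytosine offsets and still passed, and DESeq2 ended the calls of CASK and APBA1 (adjusted p = 0.0583 and 0.0602). CASK and MAGI2 were named after their values were seen. Leaving out control a ended the calls of CASK (0.43), APBA1 (-0.65), SHANK1 (-0.46) and MAGI2 (-0.31). Leaving out control b ended those of CASK (0.29) and APBA1 (-0.63), and leaving out SNP a that of SHANK1 (-0.34).

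Downstream of the channel, 28 of 32 calcium signalling genes were tested, 4 rose and 4 fell, and the median was -0.012. Here 28.6% passed, near the 26.2% of all genes, so these counts too are no result about the list. NOS1, the neuronal nitric oxide synthase coupled to NMDA receptors, was counted 117 and 114 times in control, against 90 and 95 times in SNP. It fell by 0.69 (standard error 0.199, adjusted p = 0.0134, edgeR) and passed in 10 of 14 alternatives, with -0.61 and an adjusted p of 0.110 (edgeR) without control b. The other losses were DESeq2 (adjusted p = 0.0763) and the guanine over cytosine offsets (-0.47), with or without the block. BDNF, a neurotrophin whose transcription calcium entry induces in neurons, was counted 29 and 27 times in control, against 58 and 96 times in SNP. It rose by 1.09 (standard error 0.310, adjusted p = 0.0125, edgeR), and passed in 11 of 14 alternatives. The losses were without SNP replicate b (0.66, adjusted p = 0.222, edgeR), with DESeq2 (adjusted p = 0.0662) and with the guanine over cytosine offsets without the block (0.87, adjusted p = 0.0698, edgeR). AKAP9, an anchor for protein kinase A, rose by 0.78 (adjusted p = 2.3e-06, edgeR) and CDK5R1, the activator of the kinase CDK5, by 0.55 (adjusted p = 0.0079, edgeR). With the guanine over cytosine offsets AKAP9 was at 0.33 and still passed. Without control b CDK5R1 had 0.47 and did not pass (adjusted p = 0.110, edgeR). CAMK2A, the alpha subunit of the calcium/calmodulin kinase that binds the receptor, had between 0 and 8 counts and was not tested. Named after their values were seen, RASGRF1, a calcium-sensitive exchange factor for Ras, rose by 2.43 from 3 and 2 counts to 22 and 14 (adjusted p = 0.0117, edgeR). Likewise the kinase genes PRKCA, PRKACA and CAMK2D fell by 0.44, 0.52 and 0.33 (adjusted p = 6.5e-04, 0.0101 and 0.0383, edgeR). The call of RASGRF1 was lost without control a (2.63), control b (2.27) or SNP a (2.09), that of PRKACA without control b (-0.44), and that of CAMK2D without control a (-0.19) or SNP a (-0.27). DESeq2 also ended the call of CAMK2D (adjusted p = 0.0963). PRKACA passed with offsets on length and GC (-0.45) but not with those on guanine over cytosine (-0.11), whereas PRKCA passed in 14 of 14 alternatives.

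Of 34 genes for the supply of glutamate, glycine and D-serine 23 were tested, 0 rose and 5 fell, with a median of -0.17. The share past the threshold, 21.7%, lay near the 26.2% of all genes, so these counts are no result about the list. GOT1 and GOT2, the aspartate aminotransferases that interconvert glutamate and aspartate, fell by 0.82 and 0.77 (adjusted p = 0.0092 and 2.2e-05, edgeR). SLC1A4 and SLC1A5, neutral amino acid transporters that also carry serine, fell by 0.84 and 0.62 (adjusted p = 0.0020 and 0.0011, edgeR). PSAT1, an enzyme of serine synthesis named after its values were seen, fell by 0.56 (adjusted p = 0.0097, edgeR). SRR, which makes the co-agonist D-serine, had -0.36 and did not pass (adjusted p = 0.272, edgeR). With the guanine over cytosine offsets GOT2 was at -0.49 and still passed. The call of SLC1A4 was lost without control a (-0.61), that of GOT1 without control b (-0.65) or SNP a (-0.60), and that of PSAT1 without control b (-0.50) or SNP b (-0.37).

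Of the 5 relatives of GRINA in the TMBIM family 4 were tested, and TMBIM6, known as Bax inhibitor 1, fell by 0.49 (adjusted p = 0.0013, edgeR). It was the sole member past the threshold, and it passed in 14 of 14 alternatives. All 13 genes listed as transcriptional regulators of GRIN genes were tested and 1 passed. SP1, a factor that binds GC-rich promoters, fell by 0.66 (adjusted p = 6.0e-05, edgeR), and by 0.39 with the guanine over cytosine offsets, where it still passed. REST, a repressor of neuronal genes, had 0.20 and did not pass (adjusted p = 0.232, edgeR). Of the tested genes of the 6 lists, the share past the threshold was 30% for other glutamate receptors, 24% for scaffolds, 28.6% for calcium signalling, 21.7% for supply, 25% for the TMBIM family and 7.69% for regulators. The first 5 of these lie near the 26.2% of all genes, and that of the regulators rests on 1 gene of 13. With the guanine over cytosine offsets 3 regulators passed, so none of the 6 shares is a result about the lists.

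**Figure D5:**
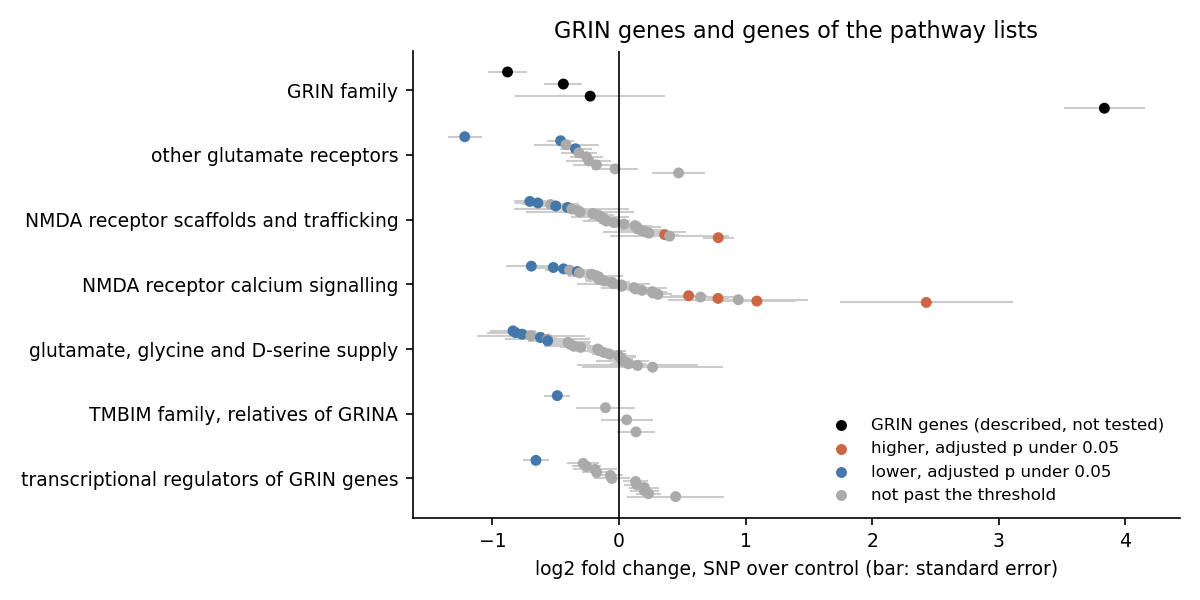
log2 fold change of SNP over control (horizontal axis, bars are standard errors) for the fitted GRIN genes in black and for each tested gene of the 6 lists, coloured where its adjusted p was under 0.05. GRIN2C at 3.83 lies to the right of every gene of the lists, the nearest being RASGRF1 at 2.43.

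The genes whose pattern over the 4 libraries was most like that of GRIN2C were sought among 14745 others, by Euclidean distance of log2 CPM after subtracting each gene's control mean. The nearest were AC005943.1, at a distance of 0.223, with 0 counts in both control libraries and 19 and 26 in SNP, and KCNMB2-AS1, at 0.294, with 4 and 2 counts in the control libraries against 65 and 72 in SNP. EPHA1-AS1 followed at 0.335 with 0 counts in both control libraries and 18 and 24 in SNP. AC233702.10, at 0.403, had 0 counts in both control libraries and 21 in both SNP libraries. FSCN2, which encodes an actin-bundling protein of the retina, was at 0.408 with 4 and 2 counts in the control libraries against 69 and 95 in SNP. All 5 had few or no reads in control, and reads of the antisense genes KCNMB2-AS1 and EPHA1-AS1 cannot be told apart from those of their partners if strand was not used in counting. AC005943.1, EPHA1-AS1 and AC233702.10 had fitted log2 fold changes of 7.33, 7.23 and 7.23, and KCNMB2-AS1 and FSCN2 of 4.10 and 4.36, against 3.83 for GRIN2C. With a prior count of 0.5 in place of 2, or a minimum of 5 CPM in place of 1, 1 of the 5 remained. These were KCNMB2-AS1 and FSCN2 respectively, so the list itself, not only its order, rests on how low counts are treated. The search starts from the values of GRIN2C, so it is no support for its difference.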

How the data were processed

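RNA of 4 SH-SY5Y libraries was sequenced in 75-base reads per the labels, and the gene counts, TPM and RPKM of each library were deposited by the authors. The build is GRCh38 per the submitters' processing notes. The aligner, counter, annotation and strand setting are not given in the sources used here. The gene length implied by count and RPKM equalled the exonic length in GENCODE for 90.4% to 90.5% of counted genes (tolerance 0.5%). Deposited RPKM are relative to library totals larger than the summed gene counts, so RPKM were compared only between genes of a library.

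Counts were tested with edgeR 4.0.16 (R 4.3.3; filterByExpr, at least 10 counts and 15 in total, TMM factors 0.989 to 1.01, quasi-likelihood test, Benjamini-Hochberg adjusted p under 0.05) on 14759 genes. Standard errors of the edgeR fits were derived as the absolute log2 fold change over the square root of the F statistic. CPM were computed from these counts with TMM scaling. Alternatives were DESeq2 1.42.0, limma-voom (limma 3.58.1), other scalings and filters, a block for the replicate letter, per-library lowess offsets (span 0.5, 3 iterations) on transcript length and composition, and each library left out. Proportion intervals are Clopper-Pearson.

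The members, gene lists and tests were chosen with earlier results of these data known. Named are all members, up to 4 genes per list with the largest change past the threshold at a mean of at least 5 CPM, GRIA1 to GRIA4, DLG4, NOS1, CAMK2A, SRR and REST, the nearest neighbours and exon-sharing genes, and the 5 most like GRIN2C. Other names are given as such. Promoter and protein sequences are not used here, and some transcript sequence and 1 marker gene are not reported here.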

Additional observations from a re-analysis of the deposited data

How the results depend on the processing

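GRIN2C stayed between 3.63 and 4.02 over its 14 alternative fits. The number of genes past the threshold, 3861 in all, was 2415 with DESeq2 (1272 higher and 1143 lower) and 2447 to 4144 when single libraries were left out (2482 without control a, 2447 without control b). It was 2743 with the guanine over cytosine offsets. GRIN1 was at -0.30 with offsets on length and GC alone, and between -0.60 and -0.27 with single libraries left out. With the guanine over cytosine offsets, alone or with the replicate block, it was at -0.18. GRINA was at -0.69 with offsets on length and GC alone, at -0.17 with the guanine over cytosine offsets, alone or with the block, and between -1.10 and -0.64 with single libraries left out. GRIN2D ran from -0.83 (without SNP b) to 0.20 (without SNP a), and it did not enter the fit with a mean of at least 50 counts. Among the lists, other glutamate receptors had 5 genes past the threshold with the guanine over cytosine offsets, with or without the block, against 3. Calcium signalling had 4 with DESeq2 against 8 and 4 to 10 with single libraries left out. Scaffolds had 2 to 7 and supply 3 to 6 with single libraries left out, the lowest without control a for scaffolds and without control b for supply and calcium signalling. Regulators had 2 with the replicate block or the length and GC offsets, 3 with the guanine over cytosine offsets, with or without the block, and 1 to 3 with single libraries left out (3 without SNP b), against 1. GRIK5 reversed to 0.0021, or 0.0036 with the block, and NAT9 to -0.097, or -0.092 with the block, under the guanine over cytosine offsets. Where a value moved, the cause was not tested.

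A replicate block on letters a and b gave 4487 calls, GRIN2C at 3.82, GRIN1 at -0.44, GRINA at -0.88 and GRIN2D at -0.26. No label ties the letters to a shared culture or day. The difference between replicates a and b correlated at 0.050 between SNP and control over 14759 genes, which are not independent replicates. The low counts of GRIN2C in control, 9 and 7, limit the precision of its fold change, and 2 libraries per group limit every spread.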
